A study of Zea mays with 6 samples.

Results

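Transcript levels of 10 maize gene models of starch synthesis were followed in mature pollen of the inbred line B73, the maize reference line. They were chosen by identifier out of 39625 gene models, as the genes listed under the names sh2, bt2, bt1, wx1, ae1, sbe1, su1, su2, du1 and AGP2. That rule uses no measured value, although the genes were picked with earlier results of these data known. All 6 libraries came from B73 pollen collected at maturity. The 3 control libraries came from plants kept at 25 °C in the light and 21 °C in the dark. The 3 heat libraries came from plants that spent 48 h at 35 °C by day, with nights at 25 °C, while the anthers held tetrads, the stage just after meiosis, and that then ripened their pollen in the greenhouse beside the controls. The chambers of both groups were at 60% humidity. The number of plants behind a library is not given in the labels, so p-values measure the spread between these libraries.

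Plants build starch in plastids from ADP-glucose, which the enzyme ADP-glucose pyrophosphorylase (AGPase) makes from glucose 1-phosphate. Starch synthases add the glucose to growing chains, branching enzymes create the branch points of amylopectin, and debranching enzymes trim them. Most of the 10 genes are known from maize kernels, in which their loss shrinks or sweetens the endosperm or changes its starch, and cereal pollen also fills with starch as it matures. The waxy locus wx1 is the classic case in which a kernel starch gene can be scored in pollen by iodine stain. All libraries here are of mature pollen, so transcript levels while starch was being filled were not measured.

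The values are TPM, that is, reads per base of gene length rescaled to 1 common total in every library, which allows levels of different genes to be compared. The whole reads behind them were recovered from the values themselves, and gave 19086616 to 28640667 reads per library, with every control library deeper than every heat library. Markers of pollen were present in all 6 libraries, where the 8 pollen genes summed to 44981 to 48551 TPM. Of these, limma called mgs2, prf1 and prf3 as higher after heat and pme1 as lower, beside 20.2% called over all tested genes. With the set of sequencing lanes as a covariate the calls of mgs2, prf1 and prf3 were lost (limma, adjusted p = 0.314, 0.230 and 0.0545). That of pme1 held under all 15 alternatives that tested it. All 18 leaf markers together reached 0.810 to 2.10 TPM. Of 28 endosperm storage markers, 25 had 0 reads in every library, and the other 3 were the regulators o2 and pbf1, the latter with 2 gene models. The pbf1 model GRMZM2G146267 alone had 4.30 ± 0.82 TPM in the controls and 4.02 ± 0.51 TPM in heat. Of 5 anther wall markers ocl4 was at 0, and their sum was 2.66 to 3.38 TPM in the controls and 4.02 to 4.49 TPM in heat. Among them ms32 (GRMZM2G163233, matched to more than 1 gene) rose from 1.62 ± 0.22 to 3.17 ± 0.11 TPM (limma, adjusted p = 0.0021, and 0.0602 with the lane covariate). The only other tested anther wall marker, ms26 (GRMZM2G091822), went the other way, from 1.25 ± 0.06 to 0.886 ± 0.262 TPM. Its groups did not overlap, as in 36.5% of all tested genes, and it was not called (limma, adjusted p = 0.197). The part of these markers in the results below was not tested.

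The 10 genes spanned a wide range of levels. The branching enzyme gene ae1 and the AGPase gene AGP2 stood at the top, and in control their library values overlapped, at 16.1 to 17.5 TPM for ae1 and 14.0 to 18.9 TPM for AGP2. By mean control TPM they ranked 2011 and 2043 among the 39625 gene models. The synthase gene du1 followed, at 3.93 to 5.52 TPM over the 6 libraries, below both in every library. Next came wx1 at 0.982 to 1.76 TPM and sbe1 at 0.998 to 1.43 TPM, ranges that overlap over the 6 libraries. Below these came the endosperm AGPase gene bt2 at 0.248 to 0.614 TPM and the synthase gene su2 at 0.144 to 0.346 TPM; these ranges overlap as well. The lowest were sh2, su1 and bt1, with 11, 10 and 1 reads over all 6 libraries, and their order cannot be read at this depth.

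**Figure D1:**
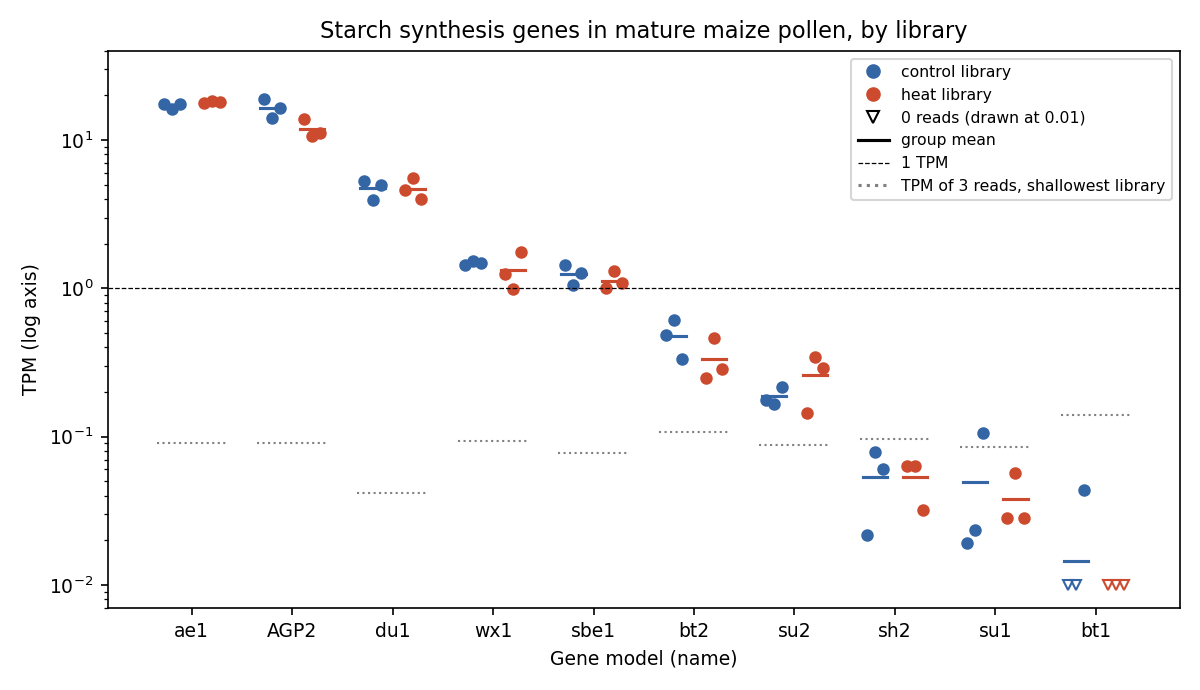
TPM of the 10 gene models on a log axis, 1 point per library, ordered by mean control TPM, with group means as bars, 1 TPM as a dashed line and the TPM of 3 reads in the shallowest library as a dotted line per gene. ae1 and AGP2 lie above 10 TPM in every library, and AGP2 is the gene whose heat points sit lowest against its control points among those above 1 TPM; sh2, su1 and bt1 lie near or below the line of 3 reads.

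Summed over the 10 genes, the level was 41.7 ± 3.87 TPM in the controls and 37.8 ± 1.31 TPM in heat (means ± SD over n = 3 libraries), and the libraries of the groups overlapped. The genes ae1, AGP2 and du1 held 90.5% to 93.0% of that sum in every library. The make-up moved within this share. AGP2 gave 37.4% to 41.9% of the sum in control and 28.4% to 35.6% in heat, and ae1 gave 38.5% to 42.9% in control and 45.7% to 49.0% in heat. Shares of 1 sum are tied, so a lower AGP2 raises the share of ae1 by itself. The shares were not tested, and the level of ae1 was not called as changed (limma, adjusted p = 0.569).

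The comparison of heat with control was made over genes that reached 1 TPM in 3 or more libraries, and 5 of the 10 passed: AGP2, ae1, du1, wx1 and sbe1. The filter was met in 5 of the 6 libraries by wx1 and by sbe1, and in all 6 by the other 3 genes. Limma called 1 of the 5, AGP2, which fell. Over all 8615 genes tested, 20.2% were called, 7.15% as lower and 13.0% as higher. This balance depended on the scaling: 1123 genes were called higher and 616 lower as reported, 937 and 786 with median-ratio scaling, 900 and 795 without the 100 most abundant genes, and 871 and 953 with quantile normalization, which turned it. The share called among the 5 genes thus lay near the background and is no result about the group. The median log2 fold change was -0.08 over the 5 genes and 0.04 over all tested genes. In pollen sampled as a whole, fewer cells of a kind and less RNA per cell cannot be told apart.

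AGPase, which makes ADP-glucose, is built of large and small subunits, and 3 of the 10 genes are listed under its names. AGP2 (GRMZM2G027955) was far the most abundant of them. The gene table gives it the name AGP2 alone, without a subunit type, and a different gene model (GRMZM2G106213) carries Agp2 beside Agpsemzm. AGP2 had 18.9, 14.0 and 16.5 TPM in control replicates 1, 2 and 3, and 13.9, 10.7 and 11.2 TPM in heat replicates 1, 2 and 3. Every heat library lay below every control library, but only just, since control replicate 2 and heat replicate 1 were 0.105 TPM apart, or 0.744% of the former. Groups without overlap occurred for 36.5% of all tested genes.

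AGP2 fell from 16.5 ± 2.44 to 11.9 ± 1.75 TPM (limma, log2 fold change of TPM + 1 of -0.43, SE 0.13, 95% interval -0.71 to -0.16, adjusted p = 0.0293). On the linear scale of TPM + 1 the level after heat was 0.740 of that in control, with an interval from 0.612 to 0.896. The values rested on 355 to 920 reads per library. Counting error at this depth averaged 3.88% in control and 5.05% in heat, while the spread between libraries was 14.8% and 14.7% of the mean, so sequencing depth was not what limited this comparison.

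The direction held under all 16 alternative ways of processing, but the call did not. It was lost without control replicate 1 (log2 fold change -0.34, adjusted p = 0.140), without control replicate 3 (-0.43, 0.0823), without heat replicate 2 (-0.36, 0.1005) and without heat replicate 3 (-0.39, 0.10002), all by limma. It was also lost with no filter on low genes (limma, adjusted p = 0.107) and with the set of sequencing lanes as a covariate (limma, -0.51, SE 0.19, adjusted p = 0.133). Heat replicate 3 shared its lanes with the controls and heat replicates 1 and 2 did not. At 11.2 TPM, heat replicate 3 lay below all 3 controls. It was the 1 heat library in the shared lanes, and the other lanes held heat libraries alone. For heat replicates 1 and 2, heat and lanes thus cannot be told apart.

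**Figure D2:**
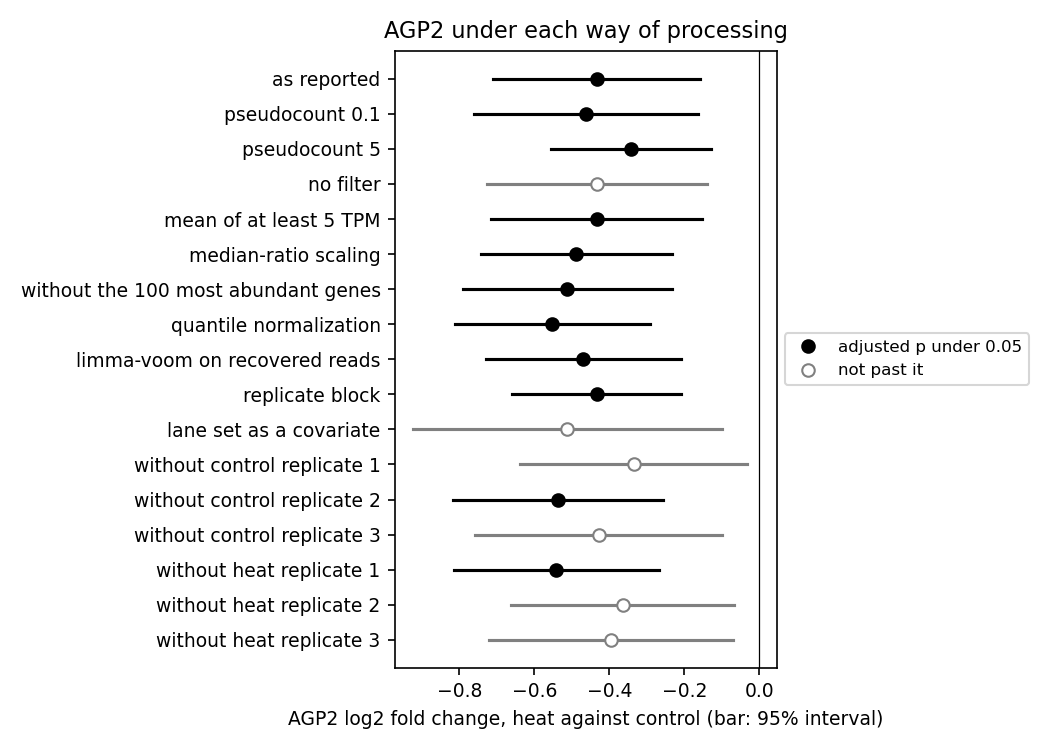
Log2 fold change of AGP2, heat against control, with its 95% interval, as reported and under the 16 alternatives; filled points have an adjusted p under 0.05. All 17 estimates lie below 0, from -0.55 with quantile normalization to -0.34 without control replicate 1, and 6 alternatives do not pass the threshold.

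The 2 AGPase genes known from kernels were low. In maize endosperm bt2 (brittle-2) encodes the small subunit and sh2 (shrunken-2) the large subunit. The bt2 gene model (GRMZM2G068506) had 0.484, 0.614 and 0.334 TPM in the controls and 0.248, 0.460 and 0.285 TPM in heat, from 7 to 21 reads per library. The groups overlapped. The reads summed to 51 in control (exact Poisson 95% interval 38.0 to 67.1) and 28 in heat (18.6 to 40.5), with the control libraries being deeper; such intervals cover counting error only. The sh2 gene model (GRMZM2G429899) had 1, 3 and 2 reads in control and 2, 2 and 1 in heat, or 0.0536 ± 0.0291 and 0.0532 ± 0.0183 TPM. That is at the limit of 3 reads, which stands for 0.0653 to 0.0963 TPM in these libraries, so a difference in sh2 was not detectable at this depth.

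Other AGPase genes were found by name, and are given here beside the 3 although they were picked after their values were seen. Only 2865 of the 39625 gene models carried a name, so isoforms without a name may be missing here and below. The small-subunit gene agpsl1 (GRMZM2G163437) had 12.5, 11.5 and 14.1 TPM in the controls and 11.9, 11.4 and 9.64 TPM in heat, with overlap, and was not called (limma, log2 fold change -0.19, 95% interval -0.44 to 0.05, adjusted p = 0.263). It stood 18.7 to 47.9 times above bt2 in TPM. AGPLS3 (GRMZM2G144002) reached 0.558 to 0.982 TPM and Agpsemzm (GRMZM2G106213) 0.327 to 0.704 TPM, and neither was tested. Among the AGPase genes found, the pair of abundant transcripts was therefore AGP2 and agpsl1. The ratio of their TPM was 1.17 to 1.51 in control and 0.934 to 1.17 in heat, with the groups touching at control replicate 3 and heat replicate 1. Over the 6 AGPase genes found, the sum was 30.9 ± 3.13 TPM in the controls and 24.7 ± 2.41 TPM in heat, and the groups overlapped.

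The bt1 gene (GRMZM2G144081, brittle-1) encodes the carrier that brings ADP-glucose into the amyloplast of the maize endosperm. It had 1 read in control replicate 3 and 0 reads in the other 5 libraries. A count of 0 still allows 3 reads, or 0.0949 to 0.140 TPM, so bt1 was not detected beyond a lone read.

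Granule-bound starch synthase makes amylose. Its kernel form is wx1 (GRMZM2G024993), which had 1.45, 1.52 and 1.47 TPM in the controls and 1.26, 0.982 and 1.76 TPM in heat. The heat libraries lay on both sides of the controls. Limma gave a log2 fold change of -0.10 with a 95% interval from -0.41 to 0.21 (adjusted p = 0.671), and the sign turned without heat replicate 2 (0.01) and with the lane covariate (0.15). With 0.1 TPM added before the logarithm in place of 1, the fold change was -0.18 and its interval was wider, from -0.69 to 0.33. The control libraries differed by 2.52% of their mean, less than the 13.0% that counting error alone gives for 51 to 69 reads, whereas the heat libraries differed by 29.6% against 15.5%. The form named GBSSIIa (GRMZM2G008263) was far higher, at 29.3 ± 1.88 TPM in the controls and 26.6 ± 1.79 TPM in heat, and was the most abundant of all 21 starch synthesis genes found. Its TPM was 14.0 to 28.8 times that of wx1 across the 6 libraries. It was not called (limma, log2 fold change -0.14, 95% interval -0.33 to 0.06, adjusted p = 0.325), except under quantile normalization (-0.29, adjusted p = 0.0196).

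Soluble starch synthases build amylopectin chains. The gene du1 (GRMZM2G141399, dull1), which encodes starch synthase III, had 5.27, 3.93 and 4.96 TPM in the controls and 4.59, 5.52 and 3.997 TPM in heat. The groups lay across the same range. Limma gave a log2 fold change of -0.01 (SE 0.14, 95% interval -0.31 to 0.29, adjusted p = 0.980), an interval that still holds a fall to 0.808 or a rise to 1.23 times the control level of TPM + 1. With single libraries left out its sign went both ways, from -0.11 to 0.08. The transcript was long, at 6035 bases, and its 290 to 564 reads per library gave a counting error of 4.89% in control and 5.44% in heat, against a spread of 14.9% and 16.3%.

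The sugary2 gene su2 (GRMZM2G348551), which encodes starch synthase IIa, had 0.177, 0.167 and 0.217 TPM in the controls and 0.144, 0.346 and 0.290 TPM in heat. Heat replicates 2 and 3 lay above the controls and heat replicate 1 below them, on 5 to 12 reads each, and the gene stayed below the filter. Summed reads were 24 in control (exact Poisson 95% interval 15.4 to 35.7) and 27 in heat (17.8 to 39.3). The synthase gene ss1 (GRMZM2G129451), named here after its values were seen, was the most abundant of the 3 soluble forms found, at 7.67 ± 0.67 and 8.05 ± 0.92 TPM (limma, adjusted p = 0.767). Of the summed TPM of the 3 soluble synthase genes, du1 and su2 together held 38.9% ± 2.06 in control and 38.0% ± 2.24 in heat.

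The branching enzyme genes found were led by ae1 (GRMZM2G032628, amylose extender), which encodes branching enzyme IIb. It had 17.4, 16.1 and 17.5 TPM in the controls and 17.9, 18.2 and 17.9 TPM in heat. All 3 heat libraries lay above all 3 controls, which 36.5% of tested genes do in one direction or the other. The difference was small and was not called: 17.0 ± 0.77 against 18.0 ± 0.19 TPM (limma, log2 fold change 0.08, SE 0.09, 95% interval -0.11 to 0.27, adjusted p = 0.569). Its sign turned under quantile normalization (-0.06). The heat libraries differed by 1.06% of their mean, below the 4.09% that counting 591 to 606 reads gives by itself, so their closeness says little about the true spread between libraries.

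The sbe1 gene model (GRMZM2G088753), for branching enzyme I, had 1.43, 1.06 and 1.28 TPM in the controls and 0.998, 1.30 and 1.08 TPM in heat, with overlap (limma, log2 fold change -0.08, 95% interval -0.36 to 0.20, adjusted p = 0.706). With 0.1 TPM added before the logarithm in place of 1, the fold change was -0.14, with a wider interval from -0.63 to 0.35. The gene table joins GRMZM2G088753 with a further model, GRMZM2G088737, and matches both to sbe1 and to another gene. Reads of sbe1 may thus be divided between the models. That second model had 2.22, 2.07 and 2.32 TPM in the controls and 2.503, 1.90 and 1.67 TPM in heat (limma, adjusted p = 0.692). Together the models had 3.46 ± 0.29 TPM in the controls and 3.15 ± 0.38 TPM in heat, still below ae1. With sbe3 (GRMZM2G005298, 1.37 ± 0.38 and 1.28 ± 0.23 TPM), the 4 branching enzyme models summed to 21.8 ± 1.43 TPM in the controls and 22.5 ± 0.53 TPM in heat.

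The last gene model, GRMZM2G138060, was listed as su1 in the choice of genes, but the gene table did not match it to a name, so no role is given here. It had 1, 1 and 4 reads in control and 1, 2 and 1 in heat, or 0.0497 ± 0.0492 and 0.0377 ± 0.0162 TPM. All but control replicate 3 lay under the limit of 3 reads. Among debranching enzyme genes found by name, iso3 (GRMZM2G150796) was the abundant one, at 6.78 ± 0.62 TPM in the controls and 7.58 ± 0.87 TPM in heat (limma, log2 fold change 0.14, 95% interval -0.11 to 0.39, adjusted p = 0.449). Its relative iso2 (GRMZM2G090905) and the pullulanase gene zpu1 (GRMZM2G158043) stayed low, at 0.229 to 0.427 TPM and 0.0882 to 0.263 TPM. The phosphorylase gene pho1 (GRMZM2G074158) reached 0.236 to 0.403 TPM.

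**Figure D3:**
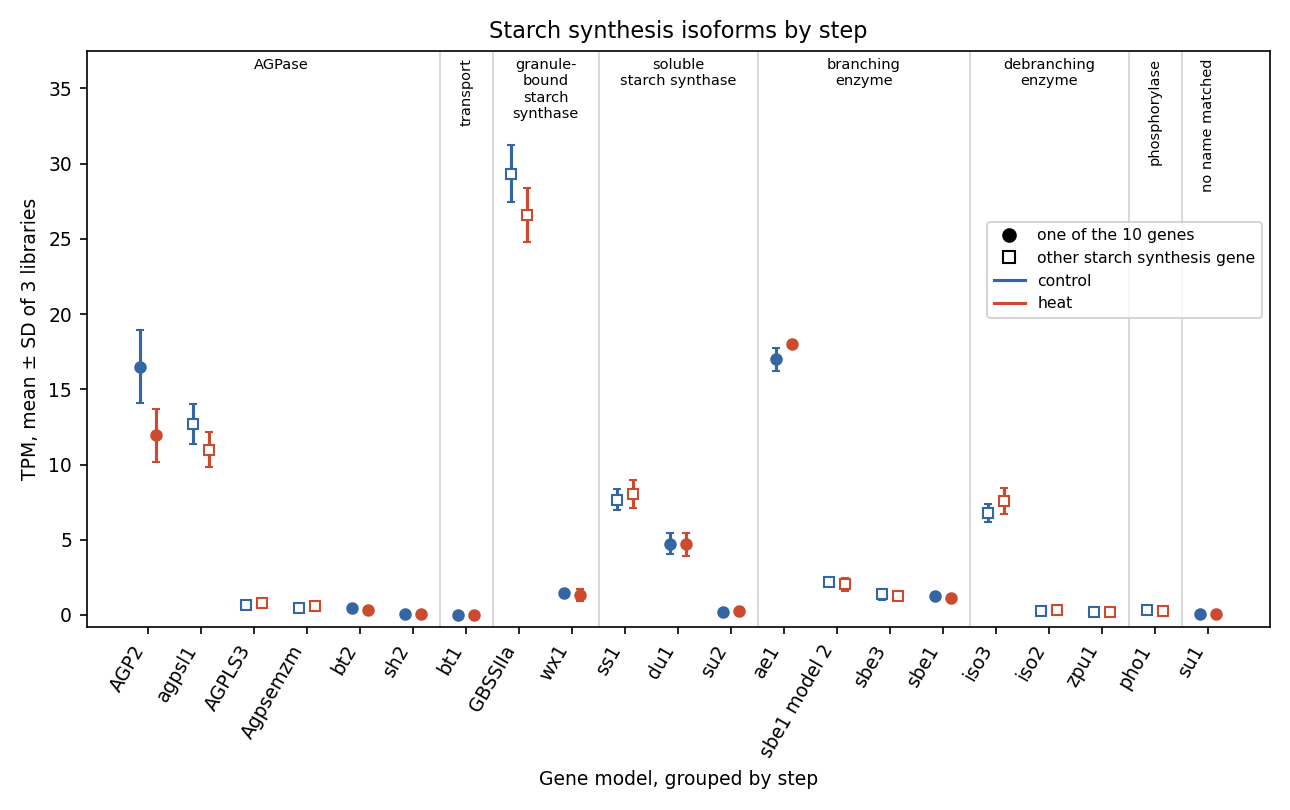
Mean TPM ± SD of 3 libraries per group for the 10 gene models (filled circles) and 11 other starch synthesis gene models found by name (open squares), grouped by step; Agpsemzm is the model that also carries the name Agp2. Among the models shown, 1 or 2 hold most of the TPM at each of 5 steps. AGP2 and agpsl1 lead AGPase, GBSSIIa the granule-bound synthase, ss1 and du1 the soluble synthases, ae1 branching and iso3 debranching. The models sh2, bt2, bt1 and su2 lie near 0.

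Among these 21 gene models, the 10 held 40.2% ± 1.18 of the summed TPM in the controls and 39.2% ± 1.40 in heat. Of the other 11, limma tested 6 and called 0, with 0 at an unadjusted p under 0.05 and 0 by limma-voom. Their log2 fold changes ran from -0.19 to 0.14, with a median of -0.07. When no filter was set, all 10 genes entered the test and limma called 0 of them. There the 5 low genes had log2 fold changes between -0.15 (bt2, adjusted p = 0.610) and 0.08 (su2, adjusted p = 0.670). With 1 TPM added before the logarithm, changes of genes so far below 1 TPM are understated. Changes of the tested genes wx1 and sbe1, near 1 TPM, are understated in part as well.

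Genes of sucrose and hexose metabolism, called the sugar supply list here, were read as 14 gene models. Whether they supply starch synthesis in pollen was not tested. Limma tested 8 of these and called 4, of which 3 rose and 1 fell, beside 20.2% called over all tested genes. The split of directions also moved with the scaling: over the 14 tested genes of the sugar supply list and the other starch genes together, 3 were called higher and 1 lower as reported, 2 and 1 with median-ratio scaling or without the 100 most abundant genes, and 1 and 2 with quantile normalization. The invertase genes ivr2 (GRMZM2G089836) and IVR1 (GRMZM2G394450), which split sucrose, rose by 1.15 and 0.31 on the log2 scale (limma, adjusted p = 4.71e-05 and 0.0389). A gpi model (GRMZM6G477257), for the isomerase between glucose and fructose phosphates, rose by 0.34 (adjusted p = 0.0184). The second gpi model (GRMZM2G065083) was the more abundant, at 152 ± 12.5 TPM in the controls. Its log2 fold change was 0.21 and it was not called (limma, adjusted p = 0.0661). The gene hex2 (GRMZM2G432801) fell, from 39.1 ± 4.98 to 30.1 ± 4.93 TPM (limma, log2 fold change -0.37, SE 0.12, adjusted p = 0.0495). In hex2 the groups overlapped, as heat replicate 1 at 35.8 TPM lay above control replicate 2 at 33.3 TPM. Of these calls, only that of ivr2 held under all 16 alternatives; each of the others was lost under 6 to 10 of them, the lane covariate included (adjusted p = 0.346 for IVR1, 0.457 for gpi and 0.131 for hex2). The 1 starch breakdown gene matched by name, Amy2 (GRMZM2G058310, also BMY1), had 0.597 to 0.698 TPM in the controls and 0.352 to 0.493 TPM in heat and was not tested. The groups did not overlap, on 105 reads in all.

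**Figure D4:**
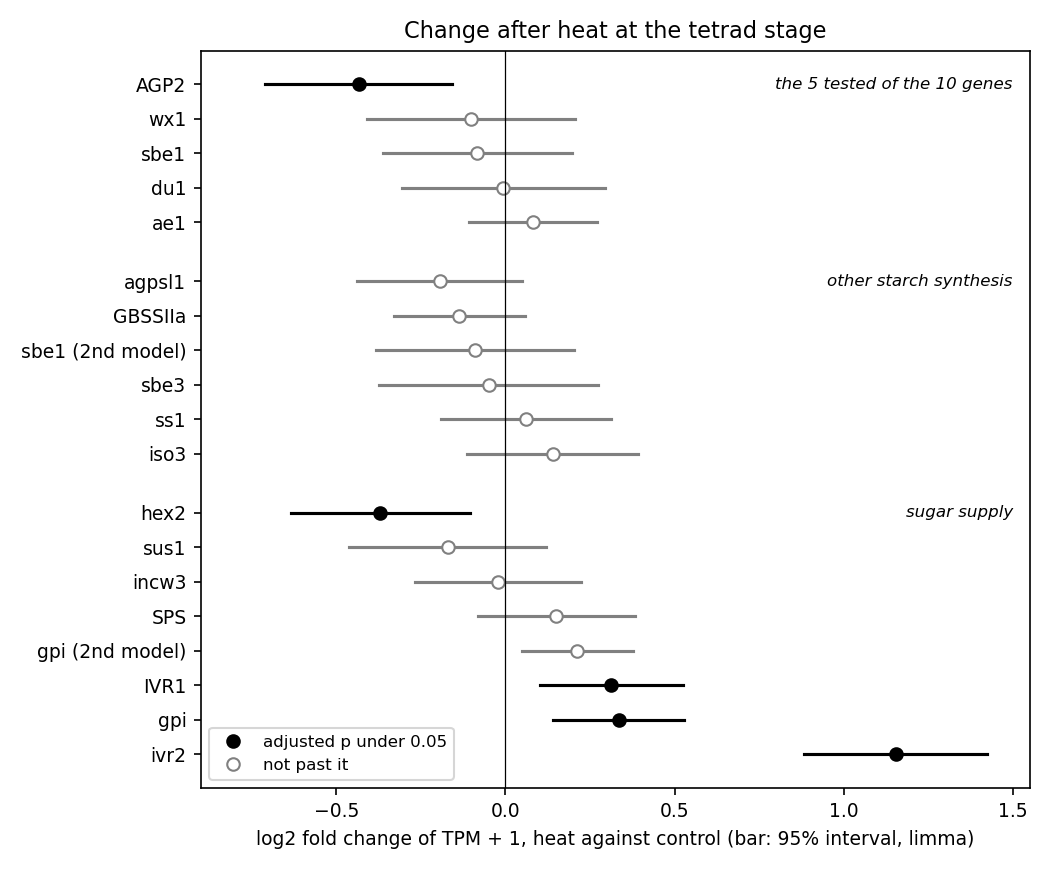
Log2 fold change of TPM + 1, heat against control, with 95% intervals from limma, for the tested genes among the 10, the other starch synthesis genes and the sugar supply genes; filled points have an adjusted p under 0.05. Among starch synthesis genes AGP2 is the 1 filled point, at -0.43, and the intervals of ae1, du1, sbe1 and wx1 include 0; ivr2 lies farthest to the right at 1.15.

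Since a common scaling moves every gene of a library alike, AGP2 was also read against ae1 within each library. The ratio of AGP2 to ae1 in TPM was 1.09, 0.873 and 0.945 in control and 0.779, 0.586 and 0.625 in heat. Every heat library lay below every control library in this ratio. That order was set beforehand, since AGP2 alone was lower and ae1 alone higher in every heat library than in every control library. The lack of overlap in the ratio is therefore no further evidence of a fall in AGP2. The mean ratio was 0.968 ± 0.109 in control and 0.663 ± 0.102 in heat. The pair was chosen after the values were seen, as the 2 most abundant of the 10 genes, and the ratio is given as a description. It does not say which of the pair changed.

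**Figure D5:**
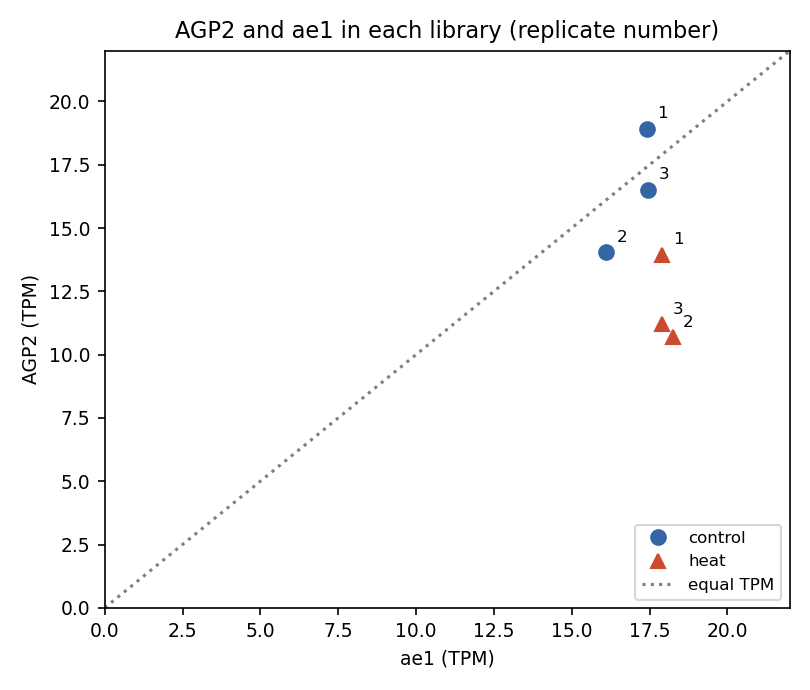
TPM of AGP2 against TPM of ae1 in the 6 libraries, numbered by replicate, with the line of equal TPM. The control libraries lie at or near the line, with AGP2 to ae1 ratios from 0.873 to 1.09, and the heat libraries lie below it, from 0.586 to 0.779.

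As a description of likeness, log2(TPM + 1) of AGP2 and of ae1 was compared with that of 804 other named genes over the 6 libraries. The genes most like AGP2 were GT1 (GRMZM2G421491, Pearson r = 0.990), CK2 (GRMZM2G047855, 0.989) and GNAT26 (GRMZM2G137961, 0.976). GT1 had 4.36 ± 0.56 TPM in the controls and 3.26 ± 0.54 TPM in heat, CK2 64.6 ± 6.24 and 54.7 ± 5.20 TPM, and GNAT26 6.94 ± 0.56 and 5.13 ± 0.64 TPM. The genes most like ae1 were aprl3 (GRMZM2G042582, 0.982), chr122 (GRMZM2G303105, 0.981) and cyclin9 (GRMZM2G017081, 0.975). With 6 libraries in 2 groups and 804 genes to choose from, high coefficients are easily found.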

How the data were processed

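The deposited table gives TPM per library, made by the authors and used as it stands. The submitters' processing notes name STAR 2.5.2a, featureCounts, Trimmomatic 0.35, DESeq2 and FastQC, and the build B73 RefGen_v3; their roles, the strand setting and the handling of reads that map to several places are not given in the sources used here. Names came from a RefSeq table of B73 release 5.0, used for names alone, which matched 9 of the 10 genes.

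Whole reads and gene lengths were recovered from ratios of TPM within a tolerance of 0.01 reads for 24654 of 24654 gene models above 0; rebuilt TPM differed from the deposited values by at most 1.61e-14 of the value. Sequencing lanes were taken from the deposited sample sheets. No pair of replicates agreed within sampling noise.

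The 8615 genes that reached 1 TPM in 3 or more libraries were fitted with limma 3.58.1 (R 4.3.3), on log2(TPM + 1) (variance trend, two-sided, Benjamini-Hochberg adjustment over all tested genes, threshold 0.05). Every adjusted p comes from this fit or, where an alternative is named, from the fit of that alternative. Only the fit described here was checked on simulated reads, which had a fixed spread and no lane effect. Alternatives were other pseudocounts, filters and scalings, limma-voom on the recovered reads, a replicate block, a lane covariate and single libraries left out. The genes and lists were chosen with earlier results of these data known. From the lists, 7 entries whose other names showed another gene were left out. Named were all 10 genes, each list's called genes or, with none, its most abundant tested gene, and the 3 named genes most like AGP2 and ae1; isoforms were added later.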

Additional observations from a re-analysis of the deposited data

How the results depend on the processing

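The number of the 10 genes called was 1 under 10 alternatives, always AGP2 as lower. It was 0 with no filter and 0 with the lane set as a covariate, and 0 to 1 with single libraries left out. The number of other starch and sugar supply genes called was 4, against 1 with no filter, 1 with the lane covariate and 1 to 3 with single libraries left out. It was 5 with a mean of at least 5 TPM, where the second gpi model passed as well (limma, adjusted p = 0.0481). With the lane covariate the test called 654 of all genes, against 1739. Directions turned only for genes that were not called: ae1 with quantile normalization (log2 fold change -0.062); wx1 with the lane covariate (0.15) and, with libraries left out, from -0.23 to 0.0099; du1 with libraries left out (-0.11 to 0.084); sbe3 likewise (-0.18 to 0.051); incw3 (GRMZM2G123633) likewise (-0.079 to 0.049); and ss1 with quantile normalization (-0.017) and the lane covariate (-0.11). The cause was not tested. The median log2 fold change over all genes was 0.04, -0.01 with median-ratio scaling, -0.01 without the 100 most abundant genes and -0.0050 with quantile normalization. Same-numbered libraries did not deviate together in every pair (correlations 0.12, 0.13 and -0.05), and differently numbered ones ran from -0.25 to 0.16. The numbers were therefore not taken as pairs. With the replicate block 1 of the 10 genes and 4 of the others were called, and the log2 fold change of AGP2 was -0.43 (limma, adjusted p = 0.0087). A mean of at least 5 TPM left du1, wx1 and sbe1 untested. Where a library was left out, the group of 2 set part of the spread. Depth limited sh2, su1, bt1, su2 and bt2 (79 reads or fewer).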
